A study of Capra hircus with 2 samples.

Results

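The microRNAs (miRNAs) of the miR-17-92 cluster and of its copy, the miR-106a-363 cluster, were counted in small RNA libraries of the dairy goat mammary gland. The members were the entries miR-17 (either arm), miR-18a, miR-18b, miR-19a, miR-19b, miR-20a, miR-20b, miR-92a, miR-106a and miR-363 of the study's list of conserved goat miRNAs. Of these 10 names, 9 had an entry, and miR-17 was listed with both arms, so that 10 of the 346 listed miRNAs were taken. The list has no entry named miR-106a. An entry named miR-106 was kept apart from the members, and an entry named miR-92 has the same listed sequence as miR-92a and was not counted a second time.

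Mammary gland tissue came from Xinong Saanen dairy goats, which were 2.5 years old, and neither stage carried a treatment or an altered gene. RNA of 3 goats was pooled at each stage, giving 1 library for the dry period, when the gland makes no milk, and 1 library for peak lactation. Each library was assigned to its stage by its title. The labels give 75 days after lambing for the dry period and 320 days for peak lactation, whereas the study's text gives these days the other way round, and the extraction protocol in the labels names a further pair of days. The clean read total of each file is the one listed under the same stage name in the study's text. With 1 pool per stage there is no measure of the spread between goats or between preparations, so the values below compare these libraries and carry no test.

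A miRNA cluster is copied as a single long transcript from which several hairpins are cut, and either arm of a hairpin (5p or 3p) can become a mature miRNA. The miR-17-92 cluster, also called oncomiR-1, is switched on by MYC and promotes proliferation and survival of dividing cells, and the miR-106a-363 cluster is its copy on the X chromosome of mammals. Target choice rests mainly on the seed, bases 2 to 8 of the mature miRNA, by which the clusters fall into the miR-17, miR-18, miR-19 and miR-92 families. In the goat annotation of RefSeq (ARS1.2), MIR17, MIR18A, MIR19A, MIR20A, MIR19B and MIR92A follow one another with no other gene between them. MIR20B, MIR18B and MIR106A are also listed next to one another, but they and MIR363 are on sequences not placed on a chromosome, which the list does not tell apart, so that neighbours there are uncertain.

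The listed sequences of the members are shown first, because the seed decides the family and the bases behind it decide which member a read was counted for. They come from the study's supplementary list, run from 5′ to 3′, and have the seed in capitals.
miR-17-5p: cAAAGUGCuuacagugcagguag
miR-20a: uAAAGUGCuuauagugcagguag
miR-20b: cAAAGUGCucacagugcagguag
miR-18a: uAAGGUGCaucuagugcagau
miR-18b: uAAGGUGCaucuagugca
miR-19a: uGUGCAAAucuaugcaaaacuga
miR-19b: uGUGCAAAuccaugcaaaacug
miR-92a: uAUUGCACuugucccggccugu
miR-363: aAUUGCACgguauccaucugcga
miR-17-3p: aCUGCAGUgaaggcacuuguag
Differences are written with the base of the first-named miRNA, the position counted from 1 at the 5′ end, and the base of the second. miR-20a differed from miR-17-5p by C1U and C12U, miR-20b differed from miR-17-5p by U10C, and miR-19b differed from miR-19a by U11C. miR-363 shared the seed of miR-92a but differed from it at 12 of 22 positions. miR-18b was listed with 18 bases that are all contained in miR-18a, so no read could be assigned to miR-18b alone.

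There were 14851375 clean reads from the dry period and 15712891 from peak lactation. Conserved miRNAs made up 61.1% of the dry period reads (Wilson 95% interval 61.1 to 61.2) and 14.4% of the peak lactation reads (14.4 to 14.4), so a level per clean read and a level per miRNA read changed differently. The study, which matched reads to miRNA precursors, reports fewer conserved miRNA reads in the dry period and more at peak lactation than were counted here. Its shares thus differ less between the stages. Values per conserved miRNA read below, and their signs, rest on the count used here, and division by the study's totals was not run. The share of reads of 21 to 23 nt was 73.3% in the dry period against 41.2% at peak lactation, and that of reads of 18 to 20 nt was 16.4% and 27.1%. Of marker miRNAs chosen for the cells that such tissue holds, none was at 0 in either library. Per clean read, the log2 fold changes were -1.99 to -0.09 for 6 miRNAs of mammary epithelium (3 lower by more than 2-fold), -2.92 to -0.41 for 5 of leukocytes (4 lower) and -2.60 to -0.90 for 4 of skeletal muscle (3 lower). They were -2.76 to -0.86 for 2 of smooth muscle (1 lower), -0.74 to -0.21 for 2 of endothelium (0 lower) and 0.15 to 1.07 for 3 of red blood cells (2 higher). The summed levels, dry period first, were 2687 and 1342 RPM (reads per 1000000 clean reads) for epithelium, 497 and 178 RPM for leukocytes and 110 and 190 RPM for red blood cells. Their part in the values of the cluster miRNAs was not tested, and in whole tissue fewer cells of a type cannot be told apart from less RNA per cell.

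Together the members had 13470 reads in the dry period library and 4225 at peak lactation, or 907 and 269 RPM. Their summed level was thus 3.37-fold lower per clean read at peak lactation (log2 fold change, peak over dry, -1.75, 95% interval -1.80 to -1.70). It was higher, however, as a share of conserved miRNA reads as counted here, at 0.186% against 0.148%. Each interval was derived from how the reads divided between the libraries (Wilson) and covers counting error only. It can be too narrow even for that, since sequenced copies are not independent molecules. All 9 members with at least 1 RPM in one of the libraries were lower by more than 2-fold per clean read. This was also true of 70.4% of all tested miRNAs (181 of 257, with 3 higher by more than 2-fold), so the direction is shared with most miRNAs of these libraries. Of the members, miR-19a (1.89 and 0.891 RPM) and miR-20b (2.29 and 0.509 RPM) reached 1 RPM in the dry period only. For them the filter itself fixed the direction. With division by conserved miRNA reads, 19 miRNAs were lower and 93 higher by more than 2-fold. Of the members, 0 were lower and 2 (miR-19a and miR-19b) were higher by that much. The median log2 fold change was -1.81 for the 9 members and -1.44 for all tested miRNAs. A member's distance from this median does not depend on the scaling, and it is given below as its change relative to the median miRNA.

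**Figure D1:**
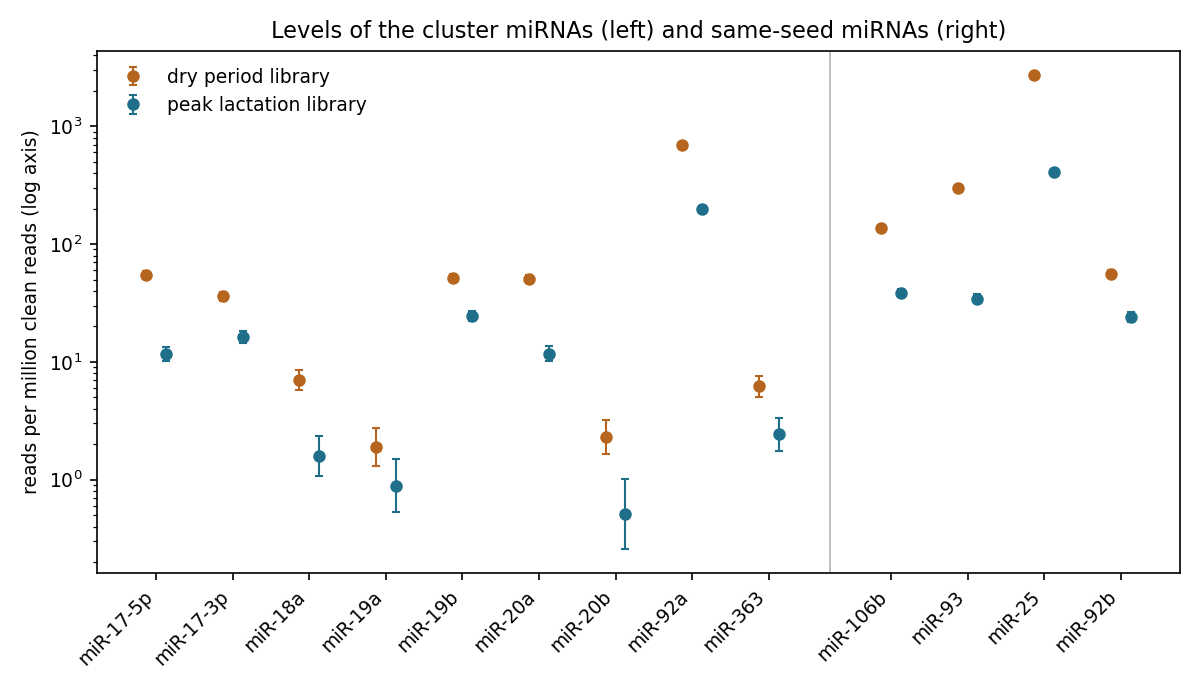
Levels of the 9 tested cluster miRNAs and of 4 miRNAs that share a seed with them, in RPM on a log axis, with 1 point per library (dry period and peak lactation) and bars for the Wilson 95% interval of counting. miR-92a stands above the other members in both libraries (696 and 199 RPM), and each miRNA is lower per clean read at peak lactation. Per conserved miRNA read as counted here, the summed members were nevertheless higher (0.148% and 0.186%).

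The levels of the members spanned more than 2 orders of size. miR-92a, which is known for restraining vessel growth, supplied 76.8% of the members' reads in the dry period against 74.1% at peak lactation. In the dry period miR-17-5p (55.0 RPM), miR-19b (51.8 RPM) and miR-20a (50.6 RPM) came next, with counting intervals that overlapped. miR-17-3p followed at 36.0 RPM, miR-18a at 7.0 RPM and miR-363 at 6.19 RPM, the last pair with overlapping intervals, and miR-20b (2.29 RPM) and miR-19a (1.89 RPM) overlapped as well. At peak lactation the order behind miR-92a was miR-19b (24.7 RPM), miR-17-3p (16.2 RPM), miR-20a (11.7 RPM) and miR-17-5p (11.6 RPM), with the last pair again overlapping. miR-17-5p had thus passed from above miR-17-3p to below it. Ligation and amplification differ between sequences, so levels of different miRNAs compare reads and not molecules.

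Among the members with the seed AAAGUGC, the miR-17 family, whose known targets include brakes of the cell cycle such as CDKN1A, the levels were lower per clean read by like amounts. miR-17-5p had 817 reads (55.0 RPM) in the dry period library and 183 reads (11.6 RPM) at peak lactation. It was 4.72-fold lower (log2 fold change -2.24, interval -2.47 to -2.01), which is -0.80 relative to the median miRNA. miR-20a had 751 and 184 reads and a log2 fold change of -2.11 (-2.34 to -1.88), -0.67 relative to the median miRNA. miR-20b, from the miR-106a-363 cluster, had only 34 and 8 reads, and its log2 fold change of -2.17 (-3.25 to -1.08) lay between those of its relatives. Divided by conserved miRNA reads, the changes of these 3 members were -0.16, -0.03 and -0.08, each with an interval that includes 0. With the other scalings given in the last section, miR-17-5p (-0.94 and -0.84) and miR-20a (-0.81 and -0.71) stayed lower. The entry miR-106, which differs from miR-17-5p by C1A and has the same seed, had 21 reads and 3 reads, and its log2 fold change was -2.89 (-4.54 to -1.24).

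miR-18a, whose known targets include the oestrogen receptor gene ESR1, had 104 reads (7.0 RPM) in the dry period against 25 reads (1.59 RPM) at peak lactation. Its log2 fold change of -2.14 (-2.76 to -1.51) was within the range of the miR-17 family members, and it was -0.05 (-0.68 to 0.57) per conserved miRNA read. For miR-18b the listed 18 bases had 1 dry period read and 0 at peak lactation, both under the 3 reads taken as the limit of detection (0.202 and 0.191 RPM), and this read fits miR-18a equally. Behind the 18 shared bases, 102 and 23 reads went on with GA, as the listed miR-18a does, and 0 and 2 reads went on with GU.

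The members with the seed GUGCAAA, the miR-19 family, had the smallest changes per clean read. miR-19b had 769 reads (51.8 RPM) and 388 reads (24.7 RPM), 2.10-fold lower at peak lactation (log2 fold change -1.07, interval -1.24 to -0.89), but it was higher by 1.02 (0.84 to 1.19) on the log2 scale per conserved miRNA read. miR-19a had 28 and 14 reads and a log2 fold change of -1.08 (-1.99 to -0.17). Both were above the median miRNA, by 0.37 for miR-19b and 0.36 for miR-19a. The ratio of miR-19a to miR-19b reads was 0.0364 in the dry period against 0.0361 at peak lactation, a log2 change of -0.01 with the wide interval of -0.96 to 0.93.

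In the miR-92 family, with the seed AUUGCAC, miR-92a had 10341 reads (696 RPM) in the dry period against 3130 reads (199 RPM) at peak lactation. It was 3.50-fold lower per clean read (log2 fold change -1.81, interval -1.86 to -1.75), which is -0.37 relative to the median miRNA, and higher by 0.28 (0.22 to 0.34) per conserved miRNA read. miR-363, the member of this family in the other cluster, had 92 reads (6.19 RPM) and 38 reads (2.42 RPM). Its log2 fold change was -1.36 (-1.90 to -0.81), and the ratio of miR-363 to miR-92a changed by 0.45 (-0.10 to 1.0), an interval that includes 0.

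miR-17-3p, the other arm of the miR-17 hairpin, has a seed that no other listed miRNA has. It had 534 reads (36.0 RPM) in the dry period against 255 reads (16.2 RPM) at peak lactation, a log2 fold change of -1.15 (-1.36 to -0.93), and it was higher by 0.94 (0.72 to 1.15) per conserved miRNA read. There were 1.53 reads of miR-17-5p for each read of miR-17-3p in the dry period against 0.718 at peak lactation. The log2 change of this ratio was -1.09 (-1.41 to -0.78), a value that no scaling of the libraries alters. Among 16 hairpins with at least 30 reads of each arm in each library, only miR-23b (-1.21) and miR-193a (-1.19) had a larger change towards the 3p arm, and the range reached 1.54 towards the 5p arm for miR-30b.

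The log2 fold changes of the tested members fell into separate ranges by arm, a grouping chosen after their values were seen. The 4 tested 5p members (miR-17-5p, miR-18a, miR-20a and miR-20b) had log2 fold changes of -2.24 to -2.11, and the 5 from the 3p arm (miR-17-3p, miR-19a, miR-19b, miR-92a and miR-363) of -1.81 to -1.07. Summed by arm, the log2 fold change was -2.17 (-2.33 to -2.02) for the 5p members and -1.70 (-1.75 to -1.65) for the 3p members. Relative to the median miRNA these sums were -0.73 and -0.26. The 3p sum was mostly miR-92a, with 10341 of 11764 reads in the dry period and 3130 of 3825 at peak lactation. No seed occurs in members of both arms, so arm and seed family cannot be told apart here. Of the same-seed miRNAs described below, miR-25 (3p, -2.75), miR-93 (5p, -3.11) and miR-106b (5p, -1.84) lay outside the range of their arm, and miR-92b (3p, -1.22) lay within it. The median log2 fold change was -2.15 for the 5p members and -1.15 for the 3p members. Over all tested miRNAs the medians of the arms were closer together, at -1.47 for 148 of the 5p arm and -1.42 for 109 of the 3p arm. Members of the same arm did not all change alike. Among the 5 members with at least 100 reads in both libraries, the ratio of miR-17-5p to miR-20a changed by -0.13 (-0.46 to 0.20) and that of miR-17-3p to miR-19b by -0.08 (-0.36 to 0.20), both with intervals that include 0. Within the 3p arm the ratio to miR-92a changed by 0.66 (0.43 to 0.88) for miR-17-3p and by 0.74 (0.55 to 0.92) for miR-19b. The counts of miR-18a, miR-19a, miR-20b and miR-363 were too low to place them within an arm more closely. Of 20 ratios between a 5p and a 3p member, the change had an interval that excludes 0 in 12. In the other 8, each with miR-18a or miR-20b, the interval includes 0, so counting error does not separate those pairs. The interval of 4 of the 9 members, all of the 3p arm (miR-17-3p, miR-19a, miR-19b and miR-363), reached the 2-fold line.

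**Figure D2:**
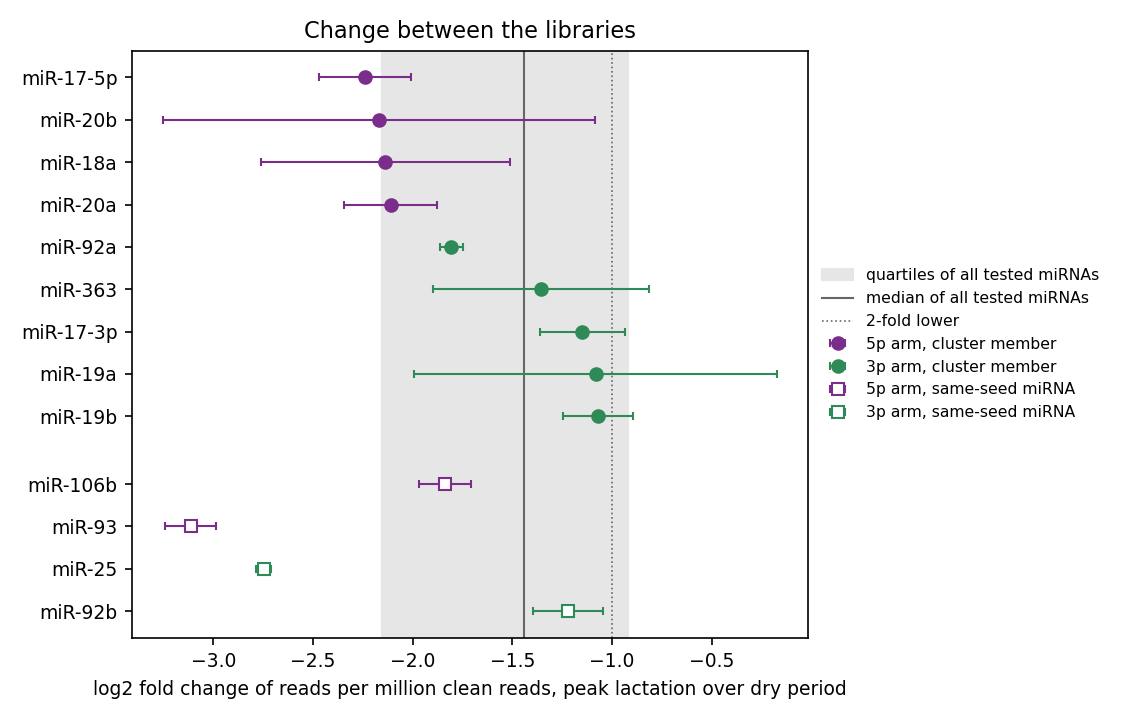
Log2 fold change of RPM, peak lactation over dry period, of the 9 tested members (filled circles) and 4 same-seed miRNAs (open squares), coloured by arm, with bars for the 95% counting interval, a line at the median (-1.44) and a grey band between the quartiles (-2.15 and -0.92) of all 257 tested miRNAs. The 5p members lie between -2.24 and -2.11 and the 3p members between -1.81 and -1.07. Division by conserved miRNA reads as counted here moves every point to the right by the same amount, which puts all 3p members above 0.

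Grouped by cluster, the members differed less than by arm. The 5 members found in the miR-17-92 cluster alone had 2234 and 661 reads in all, with a log2 fold change of -1.84 (-1.96 to -1.71). The members of the miR-106a-363 cluster alone had 127 and 46 reads, with -1.55 (-2.03 to -1.06). miR-19b and miR-92a, whose mature sequences both clusters encode in other mammals, had 11110 and 3518 reads, with -1.74 (-1.80 to -1.69). The intervals of these 3 sums overlap, and the low counts of the miR-106a-363 cluster limit the comparison.

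The seeds of the miR-17 and miR-92 families also occur in miRNAs from outside these clusters. They are shown for comparison, with the seed in capitals. miR-106b, miR-93 and miR-25 come from a cluster within the gene MCM7, next to one another in the goat annotation, and miR-92b from a gene of its own.
miR-106b: uAAAGUGCugacagugcagaua
miR-93: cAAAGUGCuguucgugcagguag
miR-25: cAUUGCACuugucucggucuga
miR-92b: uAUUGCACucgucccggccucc
miR-93 had 4420 reads (298 RPM) in the dry period against 540 reads (34.4 RPM) at peak lactation, a log2 fold change of -3.11 (-3.24 to -2.99). miR-25 had 40513 reads (2728 RPM) and 6382 reads (406 RPM), a log2 fold change of -2.75 (-2.79 to -2.71). These miRNAs were thus further below the median miRNA than any tested member, by -1.68 for miR-93 and -1.31 for miR-25. miR-106b changed by -1.84 (-1.97 to -1.71) and miR-92b by -1.22 (-1.40 to -1.05), both within the range of the members.

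At peak lactation the members made up a larger part of these seed families. For the seed AAAGUGC their share of the family's reads was 19.8% (19 to 20.7) in the dry period against 24.6% (22.5 to 26.9) at peak lactation. For the seed AUUGCAC it was 20.1% (19.8 to 20.5) and 31.9% (31 to 32.8). The ratio of miR-92a to miR-25 reads was 0.255 in the dry period against 0.490 at peak lactation, a log2 change of 0.94 (0.87 to 1.01). The ratio of miR-17-5p to miR-93 was 0.185 and 0.339, a log2 change of 0.87 (0.61 to 1.14). Not every ratio moved this way, since miR-17-5p against miR-106b changed by -0.40 (-0.67 to -0.14) and miR-92a against miR-92b by -0.58 (-0.77 to -0.40). Among 182 miRNAs outside the members with at least 100 dry period reads, the log2 fold changes nearest to that of the summed members were those of miR-125b (-1.79), miR-365-3p (-1.71) and miR-1307 (-1.80), a likeness over 2 libraries only.

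The 3′ ends of the reads differed between the libraries for some members, which was examined after the levels were known. Mature miRNAs commonly end a few bases short of or beyond the listed end, and some carry added A or U. In the dry period 51.9% of miR-17-5p reads (48.5 to 55.3) were identical to the listed sequence, and at peak lactation 72.1% (65.2 to 78.1). This rise of 20.2 percentage points was the largest among the 143 miRNAs with at least 100 reads in both libraries, whose median was 0.108 points. miR-17-3p ranked in place 3 with 31.5% (27.7 to 35.5) and 43.1% (37.2 to 49.3) identical reads, and miR-20a in place 4 with 38.3% (34.9 to 41.9) and 49.5% (42.3 to 56.6). Counting error is larger with few reads, so miRNAs with low counts can reach either end of this ranking. Place 2 was held by miR-3431 (197 and 190 reads), and the largest fall, of 11.9 points, by miR-206 (912 and 159 reads). In miR-19b (40.7% and 39.4%) and miR-92a (44.3% and 43.9%) the shares were close in the libraries.

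**Figure D3:**
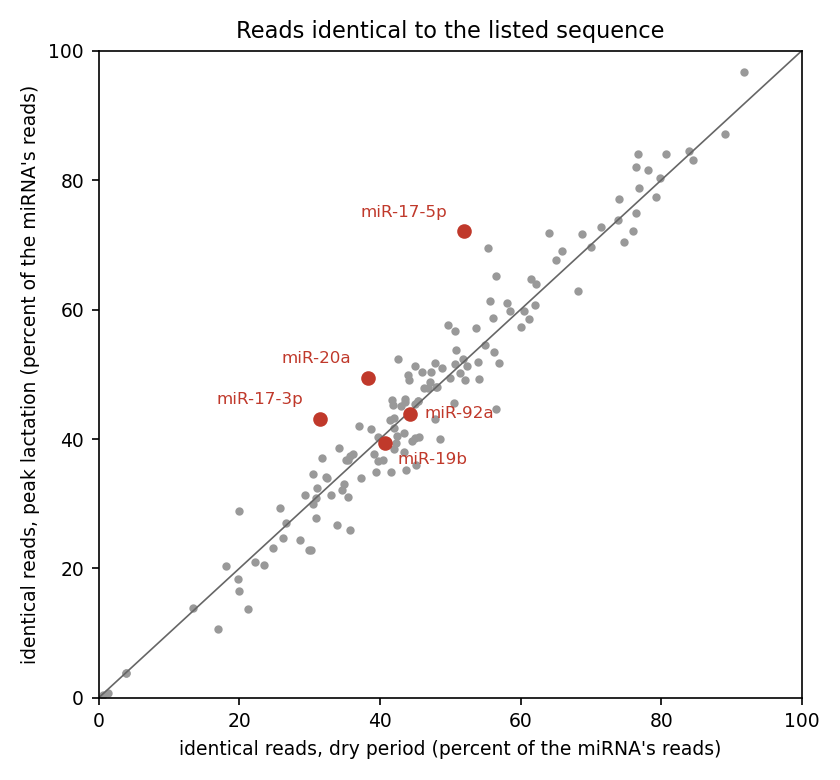
Share of a miRNA's reads that are identical to its listed sequence, in percent, in the dry period library (x axis) and the peak lactation library (y axis), for the 143 miRNAs with at least 100 reads in both, with the line of equal shares. miR-17-5p, miR-17-3p and miR-20a lie above the line by 20.2, 11.7 and 11.1 points, and miR-19b and miR-92a lie on it within 1.3 points.

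For miR-17-5p the reads that were not identical changed more than the identical ones. Identical reads numbered 424 and 132 (log2 fold change -1.76), and all other reads 393 and 51 (-3.03), a difference of 1.26 (0.76 to 1.77). Per conserved miRNA read both changes move up together and the difference stays. Reads that stopped short of the listed end went from 25.2% to 14.2% of miR-17-5p and from 31.2% to 23.4% of miR-20a. Reads of miR-20a with other letters before the listed end, mostly U or A in place of the last G, went from 21.7% to 14.7%. For both shares of miR-20a the intervals of the libraries overlap. They were 27.9 to 34.6 and 17.8 to 30.0 for the shorter reads, and 18.9 to 24.8 and 10.3 to 20.5 for the others.

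In miR-17-3p the extended reads went from 53.4% (49.1 to 57.6) to 43.9% (38.0 to 50.1), with intervals that overlap. Its leading dry period tags were these, with the letters past the listed sequence in capitals, shown because the first of those letters separates reads that changed by different amounts.
Identical: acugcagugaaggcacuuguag
Extended by A: acugcagugaaggcacuuguagA
Extended by AA: acugcagugaaggcacuuguagAA
Extended by CA: acugcagugaaggcacuuguagCA
The tag extended by CA had 55 dry period reads and 9 at peak lactation, whereas the tag extended by AA had 48 and 30. Over all lengths, 112 and 21 reads went on with C, which is 21% and 8.24% of miR-17-3p, and 154 and 77 reads went on with A, which is 28.8% and 30.2%. The log2 change of the C reads differed from that of the A reads by -1.42 (-2.19 to -0.64). The genome was not analysed here, so letters copied from the hairpin and letters added later were not separated.

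miR-92a kept its pattern of ends. Its most frequent tags were the full 22 nt (4583 and 1375 reads) and a 20 nt form that lacks the last 2 bases (3034 and 971 reads), and the latter made up 29.3% and 31% of its reads. The log2 fold changes of identical and other miR-92a reads differed by -0.02 (-0.14 to 0.09), and those of miR-19b by -0.08 (-0.44 to 0.28).

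**Figure D4:**
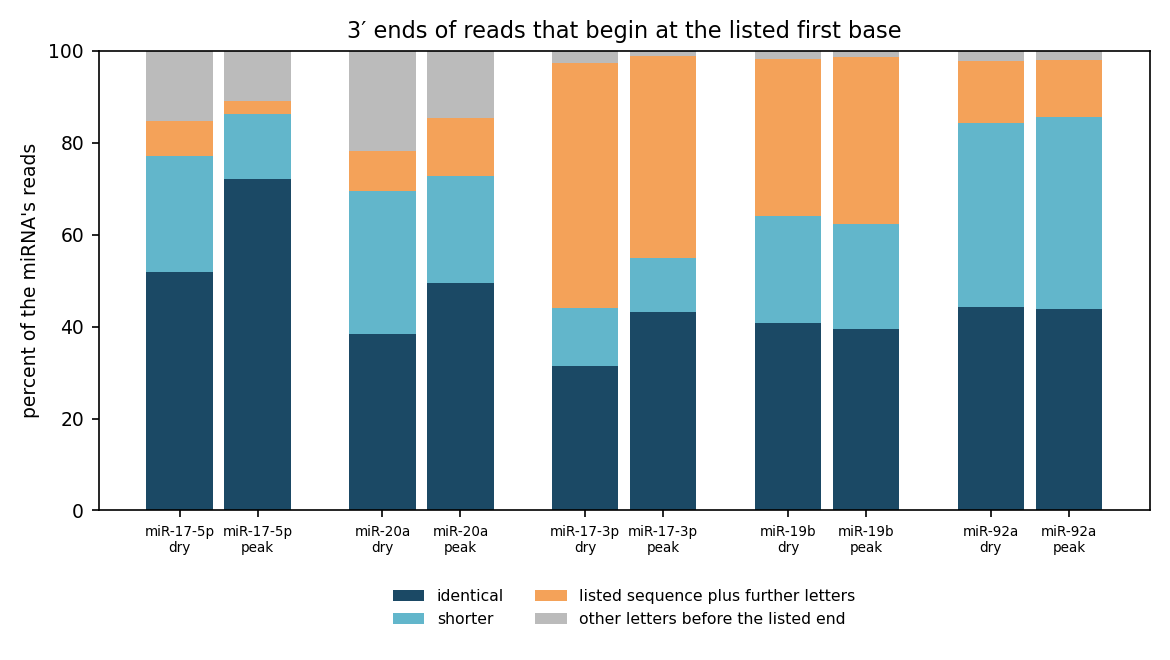
Reads of the 5 members with at least 100 reads in both libraries by 3′ end, in percent of the miRNA's reads, with 1 bar per library (dry period, peak lactation) split into identical, shorter, extended and otherwise ending reads. The identical part is larger at peak lactation for miR-17-5p (51.9% and 72.1%), miR-20a (38.3% and 49.5%) and miR-17-3p (31.5% and 43.1%), and nearly the same for miR-19b and miR-92a.

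The 5′ ends were less fixed in some members than in most miRNAs. This matters because a shift of the first base shifts the seed, and reads with another start were left out of the counts above. Of the dry period reads that began within 2 bases of the listed start, those at the listed base were 40.7% for miR-363, 87.5% for miR-19a (28 reads), 90.5% for miR-17-3p and 92.5% for miR-17-5p. The other 5 tested members had 96.3% to 99.1%. Over 188 miRNAs the share off the listed start had a median of 1.15% and an upper quartile of 4.31%. For miR-363 the reads that began 1 base after the listed start outnumbered those at the listed start in each library, by 127 to 92 in the dry period and by 47 to 38 at peak lactation. They made up 56.2% (49.7 to 62.5) and 53.4% (43.1 to 63.5) of the miR-363 reads that began within 2 bases of the listed start. The listed form and the most frequent tag of the later start (58 and 24 reads) are shown with bases 2 to 8 in capitals.
miR-363 as listed: aAUUGCACgguauccaucugcga
miR-363, later start: aUUGCACGguauccaucugcgu
The later start replaces the miR-92 family seed AUUGCAC by UUGCACG. A start other than the listed one was the most frequent in 4 of 188 miRNAs (2.13%) with at least 100 such reads, the others being miR-215, miR-2284u and miR-23b-5p. The ratio of the later to the listed start of miR-363 changed by -0.16 (-0.89 to 0.57) between the libraries, an interval that includes 0.

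miR-17-5p had a second form that began 1 base before the listed start, mostly with a U in front (55 of 57 dry period reads and 23 of 25 at peak lactation). Its most frequent tag is shown with bases 2 to 8 in capitals.
miR-17-5p, earlier start: uCAAAGUGcuuacagugcaggua
This form was 6.46% (5.02 to 8.27) of the miR-17-5p reads in the dry period against 11.9% (8.20 to 17) at peak lactation, and the log2 change of its ratio to the listed start was 0.97 (0.25 to 1.69). For miR-92a, reads that began 1 base late had 332 and 82 reads, or 3.10% and 2.55%. miR-17-3p had 31 and 9 reads that began 1 base late and 23 and 15 that began 2 bases late. Of miR-19b reads, 99.1% and 99.0% began at the listed base.

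**Figure D5:**
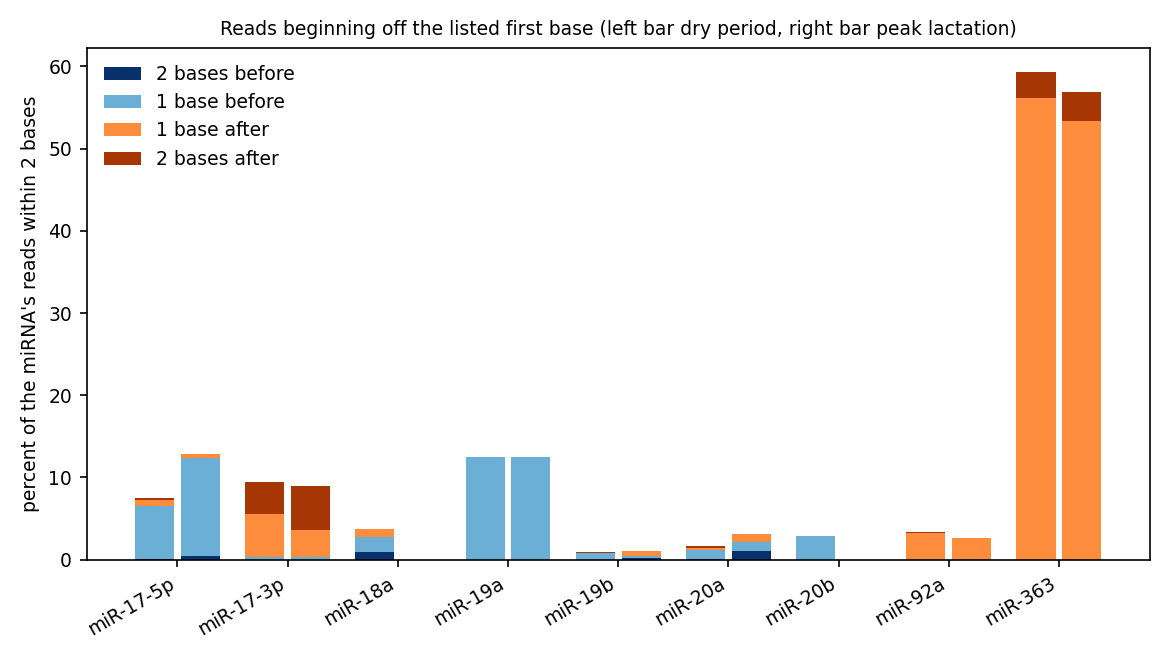
Reads of the 9 tested members that begin 1 or 2 bases before or after the listed first base, in percent of the miRNA's reads within 2 bases of it, with the left bar for the dry period and the right bar for peak lactation. miR-363 stands apart with 56.2% and 53.4% of reads starting 1 base late, miR-17-5p has 6.46% and 11.9% starting 1 base early, and the bars of miR-19a rest on 4 and 2 reads.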

How the data were processed

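Small RNA from mammary gland tissue was sequenced in 2 libraries. The authors removed low-quality reads, reads with adaptor faults or poly(A), and those under 18 nt, and deposited the counts of each distinct clean read (tag), neither normalized nor aligned. CASAVA is named in the submitters' processing notes with no version. Each tag went to the listed miRNA that it matched without mismatch over the longest stretch from the first listed base, at least 18 nt, whatever its 3′ end, and equal matches counted for each miRNA. Sequences came from the study's supplementary list. Counts were divided by clean reads, 0 was replaced by 0.01 RPM, and miRNAs under 1 RPM in both libraries were left out of the miRNAs called tested. Ratios have Woolf 95% intervals and shares Wilson intervals, so that more reads give narrower intervals. Named miRNAs were the members, miR-106, miRNAs sharing a member's seed and the 3 nearest in log2 fold change. Hairpins, starts and ends that stood out were added. The members and lists were chosen with earlier results of these data known. Alternatives covered scaling, counting and filters. Python 3.11.15, numpy 2.4.6, scipy 1.17.1, matplotlib 3.10.9, R 4.3.3, edgeR 4.0.16 and DESeq2 1.42.0 (size factors only) were used. The counting was tested on simulated libraries of exact listed sequences and random tags. These held no end variants, shifted starts or entries with the same sequence, so the counting of such reads was not tested.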

Additional observations from a re-analysis of the deposited data

How the results depend on the processing

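The scaling decided the direction of the change. The summed log2 fold change of the members was 0.33 after division by conserved miRNA reads, -0.45 with TMM factors of edgeR and -0.36 with size factors of DESeq2, against -1.75 per clean read, and the number of members lower by more than 2-fold went from 9 to 0 under each. Members higher by more than 2-fold numbered 2 after division by conserved miRNA reads and 0 with TMM or size factors. In the same order, the log2 fold change was 0.94, 0.15 and 0.25 for miR-17-3p, 1.0, 0.22 and 0.31 for miR-19a, and 1.02, 0.23 and 0.33 for miR-19b. For miR-363 it was 0.73 after division by conserved miRNA reads, -0.058 (-0.60 to 0.48) with TMM factors and 0.039 (-0.50 to 0.58) with size factors. For miR-92a it was 0.28 after division by conserved miRNA reads. With TMM and size factors it was -0.51 and -0.41 for miR-92a, -0.94 and -0.84 for miR-17-5p, and -0.81 and -0.71 for miR-20a. For miR-18a it was -0.84 and -0.74. The TMM and size factor intervals of miR-92a, miR-17-5p, miR-20a and miR-18a lay below 0, whereas those of miR-20b (-0.87 and -0.77) include 0. With TMM factors 52 of 257 miRNAs were lower and 23 higher by more than 2-fold, and with size factors 47 and 30. The difference between the median of the members and that of all tested miRNAs was -0.37, and it was -0.22 with only identical tags, -0.52 with miR-106 as a member and -0.43 with no filter on low counts. The cause was not tested. With only identical tags, miR-17-5p changed by -1.76, miR-20a by -1.74 and miR-17-3p by -0.69. With tags of at least 5 reads, an alternative chosen after seeing the data, the identical share in the dry period was 52.9% for miR-19a and 75.0% for miR-20b. Over all alternatives, 60 of 90 log2 fold changes of single members stayed within the counting interval, 18 left it and 12 changed sign, while 6 of 6 values of the ratio of the miR-17 arms and 18 of 18 shares of the listed length stayed within it. Every log2 fold change of a single member under another scaling left the interval or changed sign. Of the rest, only those of miR-17-5p, miR-20a and miR-17-3p with only identical tags left it. Starts up to 2 bases off the listed base, also added later, gave a sum within its interval. No library could be left out, with 1 per stage. No paired analysis was possible because each stage has 1 library. The planned count with reference mature sequences was not run, since no goat mature or hairpin sequences were available here. For the same reason the other arms of miR-18a, miR-19a, miR-19b, miR-20a, miR-92a and miR-363 were not counted. Under 100 reads, as for miR-19a, miR-20b and miR-363, counting error limits any comparison.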
